A study of Mus musculus with 6 samples.

Results

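Glutathione S-transferases join the tripeptide glutathione to reactive electrophiles. Here 10 of their genes were followed in vascular smooth muscle cells of the mouse, the contractile cells of the vessel wall, after knockdown of Ezh2. They were all rows whose symbol was Gsta4, Gstm1, Gstm2, Gstm5, Gsto1, Gstp1, Gstt1, Gstz1, Mgst1 or Mgst3, 10 of 27502 genes in the tables. All 10 reached the filter of the test, a mean of at least 1 FPKM (fragments per kilobase of gene, scaled to library size) in at least 1 group, as did 11869 genes in all. Cells cultured from aorta were treated with short interfering RNA against Ezh2 in 3 samples, called siEzh2, and 3 samples were controls, all at 48 hours. The sources used here do not give what the control cells received, the mouse strain and age, or the sequence of the siRNA. EZH2 is the enzyme of Polycomb repressive complex 2 that methylates histone H3 at lysine 27. Whether the samples of a group are separate cultures or animals is not in the labels, so the p-values reflect the spread among these samples alone, and that spread may be technical.

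The cytosolic enzymes are soluble dimers sorted by sequence into classes, of which alpha, mu, pi, theta, omega and zeta are represented here. Microsomal enzymes sit in membranes and belong to an unrelated family, MAPEG. Several family members are textbook targets of NRF2, the factor that binds antioxidant response elements and also drives the genes of glutathione synthesis. The conjugates leave the cell through ABC transporters and are then trimmed to mercapturic acids. Conjugation is best known from the liver, and in the vessel wall these enzymes remove products of lipid peroxidation.

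The knockdown was visible in every library. Ezh2 had 1.20, 1.09 and 1.05 FPKM in siEzh2 samples, against 3.41, 3.59 and 3.88 FPKM in control samples (log2 fold change -1.13, adjusted p = 5.15e-05). Steps in the low FPKM values gave back between 16080044 and 18753186 reads per sample. Samples of a group correlated at 0.992 or more across genes, and samples of different groups at 0.98 or less. Log2 fold changes here are siEzh2 minus control on log2(FPKM + 1), which understates changes of low genes, and p-values are from limma with Benjamini-Hochberg adjustment over all tested genes. A gene is called at an adjusted p under 0.05.

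The family did not move as a block. Gstm1 rose, Gstm2, Gstt1 and Mgst3 fell, and Gsta4, Gstm5, Gsto1, Gstp1, Gstz1 and Mgst1 were not called. That makes 4 called members of 10 (40%), while 46.9% of all tested genes were called in either direction, so the share of members is near the background. By direction it was 1 member higher, where 24.1% of tested genes were called higher, and 3 members lower, where 22.7% were called lower. The median log2 fold change was 0.00 over the members and 0.01 over all tested genes, and the median size without sign was 0.18 and 0.16. In 6 members the groups did not overlap, which was also the case for 58.1% of tested genes. In bulk samples such as these, fewer cells of a type cannot be told apart from less RNA per cell.

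**Figure D1:**
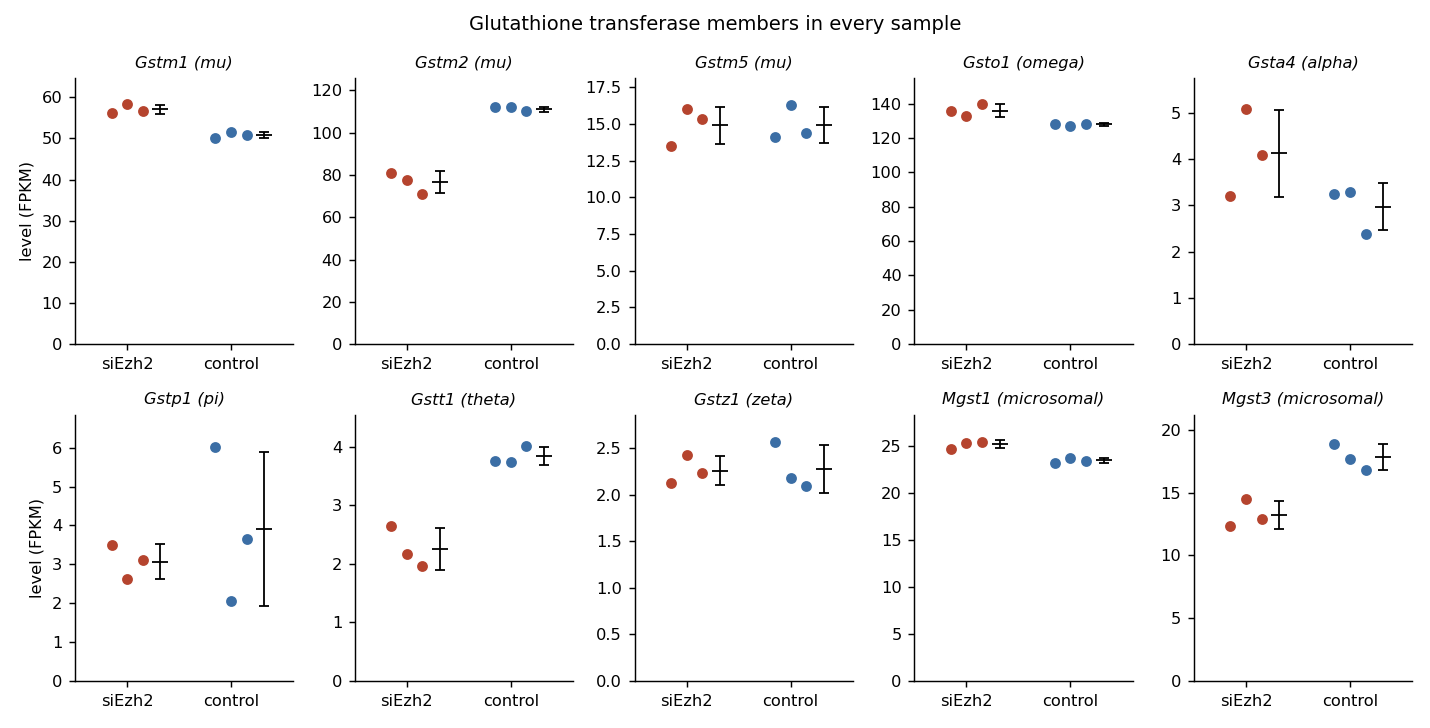
Level of each member in FPKM (vertical axes, from 0) in the 3 siEzh2 samples (red) and the 3 control samples (blue), with mean and SD in black. Gstm2, Gstt1 and Mgst3 lie lower in all siEzh2 samples than in any control sample, Gstm1, Gsto1 and Mgst1 lie higher, and the groups overlap in the other 4 genes.

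In control samples Gsto1, Gstm2 and Gstm1 averaged 128, 111 and 50.9 FPKM and stood above 97.2%, 96.6% and 91.9% of tested genes. Mgst1, Mgst3 and Gstm5 followed at 23.5, 17.8 and 14.9 FPKM. Gstp1, Gstt1, Gsta4 and Gstz1 averaged 3.91, 3.84, 2.97 and 2.28 FPKM and stood above 35.3%, 34.8%, 28.1% and 21.5% of tested genes. Among neighbours in this order, the control values of Gstp1 and Gstt1 overlapped, and so did those of Gsta4 and Gstz1, while those of Gstt1 and Gsta4 did not.

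In the mu class neighbouring paralogs moved in opposite directions. Gstm1 and Gstm2 both encode glutathione transferases that act on aryl halides and epoxides, and they are neighbours on chromosome 3. Their coding sequences, 657 bases each, were 86% identical, with 92 differing bases. The first 120 coding bases are shown, 5′ to 3′, because reads of the 2 genes can be told apart by the differences between them, given in capitals, of which this stretch holds 18 (GENCODE M21).
Gstm1: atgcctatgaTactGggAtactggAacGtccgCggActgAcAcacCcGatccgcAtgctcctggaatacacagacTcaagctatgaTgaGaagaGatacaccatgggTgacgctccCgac
Gstm2: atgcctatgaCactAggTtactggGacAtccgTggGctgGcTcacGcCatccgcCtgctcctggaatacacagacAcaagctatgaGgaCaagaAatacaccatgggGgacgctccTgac
Despite that spacing of differences, 18.9% of the 50-base words in the transcripts of Gstm1, and 5.7% of those of Gstm2, also occurred in transcripts of other genes. At 100 bases the shares were 5.9% and 0.4%. For Gstm1 the other genes were Gstm2-ps1, Gstm3, Gm8834, Gm6665 and Gstm2 itself, and for Gstm2 they were Gm12499, Gm6665 and Gstm1. The sources used here do not give the read length or the treatment of reads with several matches, so part of these values could have been shared with the copies.

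Gstm2 (ENSMUSG00000040562, chromosome 3 from 107981702 to 107986453, minus strand, mm10) had 81.0, 77.6 and 70.9 FPKM in siEzh2 samples, against 112, 112 and 110 FPKM in control samples. Every siEzh2 sample lay below every control sample. The mean was 76.5 ± 5.16 FPKM in siEzh2 and 111 ± 1.08 in control samples (SD, n = 3 each), 1.45 times lower, with a log2 fold change of -0.53 (SE 0.0543, adjusted p = 0.000655). Gstm2 was the member with the most reads that passed the test, 6548 over the siEzh2 samples and 10365 over the controls.

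Gstm1 (ENSMUSG00000058135, chromosome 3 from 108012255 to 108017973, minus strand) went the other way by a small amount. It had 56.2, 58.3 and 56.6 FPKM in siEzh2 samples, against 50.2, 51.5 and 50.9 FPKM in control samples. All siEzh2 values were above all control values. The log2 fold change was 0.16 (SE 0.0337, adjusted p = 0.00926), a mean 1.12 times that of control. Gstm5 (chromosome 3 from 107895821 to 107898686, plus strand), a mu enzyme known from brain and testis, had 13.5, 16.0 and 15.3 FPKM in siEzh2 samples, against 14.1, 16.3 and 14.4 FPKM in control samples. Its groups overlapped, and the log2 fold change of 0.00 had a 95% interval from -0.19 to 0.19 (adjusted p = 0.996). For Gstm5 13.93% of the exon bases overlap the antisense gene 4933431E20Rik, and the sources used here do not say whether counting used the strand.

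The makeup of the mu transcripts therefore differed between groups. The summed level of Gstm1, Gstm2 and Gstm5 was 151, 152 and 143 FPKM in siEzh2 samples, against 176, 180 and 175 FPKM in control samples. Gstm2 made up 53.7%, 51.1% and 49.6% of that sum in siEzh2 samples, against 63.5%, 62.2% and 62.7% in control samples. The Gstm1 level was 0.694, 0.752 and 0.799 times that of Gstm2 within the siEzh2 samples and 0.449, 0.462 and 0.463 times within the control samples. These ratios were chosen after the values were seen and are given without a test.

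**Figure D2:**
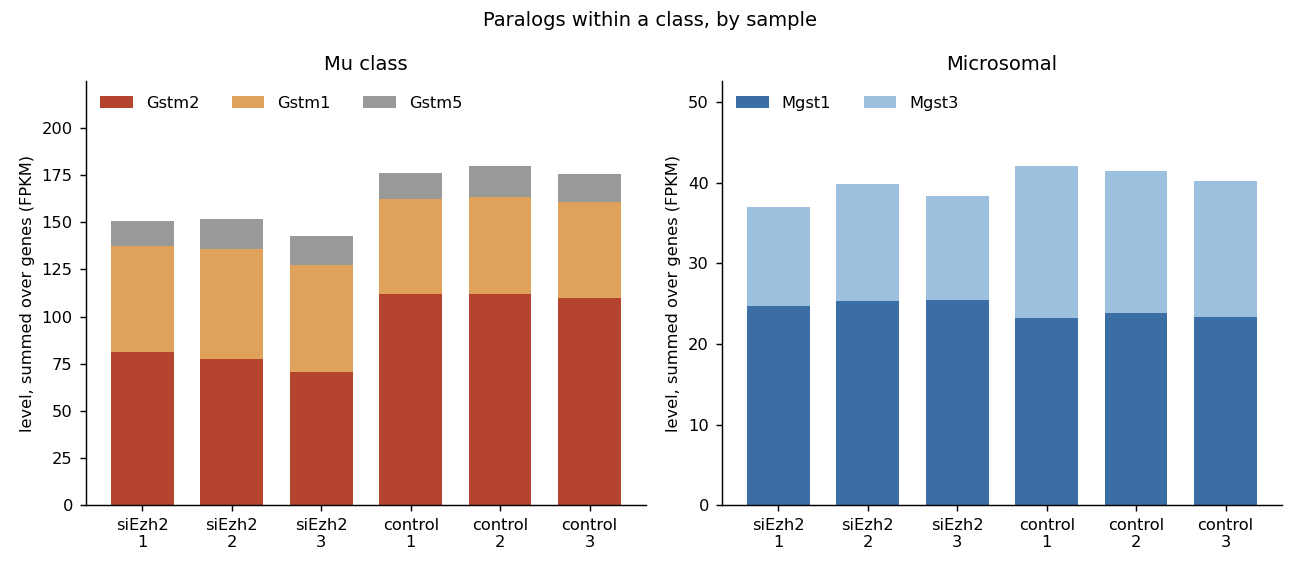
Stacked levels in FPKM (vertical axes) of the 3 mu members (left) and the 2 microsomal members (right), 1 bar per sample, siEzh2 samples to the left of controls. The Gstm2 part of the mu bars is smaller in siEzh2 samples (70.9 to 81.0 FPKM) than in controls (110 to 112 FPKM), and so is the Mgst3 part of the microsomal bars (12.3 to 14.5 against 16.8 to 18.9 FPKM).

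Neighbours of these genes that were not among the 10 gave more falls. On chromosome 3 the annotation holds 7 mu genes within 149 kb, in the order Gstm5, Gstm7, Gstm6, Gstm3, Gstm2, Gstm1 and Gstm4. Gstm7 had 3.69, 3.70 and 3.34 FPKM in siEzh2 samples, against 5.74, 5.86 and 5.99 FPKM in control samples (log2 fold change -0.59, adjusted p = 0.000221). Gstm6 had 0.281, 0.601 and 0.433 FPKM in siEzh2 samples, against 1.57, 1.37 and 1.49 FPKM in control samples (log2 fold change -0.79, adjusted p = 0.000779), on 45 reads in siEzh2 and 163 in control samples. Gstm4 fell by 0.20 on the log2 scale (adjusted p = 0.0231), a call lost without siEzh2 sample 1 (adjusted p = 0.0518), control sample 1 (0.0654) or control sample 2 (0.0702), and on recovered reads (0.0571). Gstm3 had 0 reads in siEzh2 and 1 read in control samples. Of the 6 mu genes tested at this locus, 4 were thus lower, Gstm1 was higher and Gstm5 was not called, while 22.7% of all tested genes were lower and 24.1% higher. Gstm6 entered the test only through the control samples, where it was higher, and the Gstm4 call was lost in the alternatives given. The count is therefore a description of the locus only.

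Gsto1 of the omega class was the most abundant member. Omega enzymes carry a cysteine in the active site and reduce dehydroascorbate and other substrates by glutathione rather than conjugating them. Gsto1 (ENSMUSG00000025068, chromosome 19 from 47854970 to 47864790, plus strand) had 136, 133 and 140 FPKM in siEzh2 samples, against 128, 127 and 128 FPKM in control samples. The groups did not overlap, but the log2 fold change of 0.09 (95% interval 0.01 to 0.18) missed the threshold after adjustment (adjusted p = 0.0726). It passed in 4 of 14 alternatives, at an adjusted p of 0.00922 on recovered reads, 0.0183 with limma's trend and robust options, 0.0196 after quantile normalization and 0.0447 with a filter at 5 FPKM. Its share of the summed level of all 10 members was 40.5%, 39.4% and 42.1% in siEzh2 samples, against 35.4%, 35.3% and 36.0% in control samples. The adjacent Gsto2 was under the filter, at 0.615 FPKM in siEzh2 and 0.735 FPKM in control samples.

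Gstt1 of the theta class fell. Theta enzymes handle small halogenated compounds such as dichloromethane. Gstt1 (ENSMUSG00000001663, chromosome 10 from 75783813 to 75798584, minus strand) had 2.64, 2.16 and 1.96 FPKM in siEzh2 samples, against 3.76, 3.73 and 4.02 FPKM in control samples. No siEzh2 value reached a control value. The mean of 2.25 ± 0.354 FPKM in siEzh2 samples was 1.70 times below the 3.84 ± 0.158 FPKM of controls (SD, n = 3 each, log2 fold change -0.58, SE 0.0802, adjusted p = 0.00202), on 175 reads in siEzh2 and 326 in control samples. Next to it Gstt3 fell by 0.26 (adjusted p = 0.0375), with 13.64% of its exon bases in Gm20441. That call was lost without siEzh2 sample 1 (adjusted p = 0.102), siEzh2 sample 2 (0.104), control sample 2 (0.0908) or control sample 3 (0.107), and with no filter on low values (0.0909). Gstt2, at the far end of the 63.3 kb locus, was under the filter, with 0.731 ± 0.158 FPKM in siEzh2 and 0.778 ± 0.177 FPKM in control samples (SD, n = 3 each).

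Gsta4 of the alpha class is known for conjugating 4-hydroxynonenal, an aldehyde product of lipid peroxidation. It had 3.19, 5.08 and 4.08 FPKM in siEzh2 samples, against 3.24, 3.28 and 2.38 FPKM in control samples. The lowest siEzh2 sample fell among the controls. The log2 fold change of 0.36 had a 95% interval from -0.02 to 0.73 (adjusted p = 0.104). It was called without siEzh2 sample 1 (0.49, adjusted p = 0.0375) and on recovered reads (0.47, adjusted p = 0.0389), so this single library decided the call in the fit on FPKM. The reads of Gsta4, 65 to 113 per siEzh2 sample, varied more than counting alone gives (chi-square per degree of freedom 4.60). Such spread was not confined to low genes. In siEzh2 samples the same measure was 9.84 for Gstm2, 3.71 for Gsto1 and 0.575 for Gstm1.

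Other alpha genes stood near the floor. Gsta3, chosen after its values were seen, had 1.07, 0.891 and 0.926 FPKM in siEzh2 samples, against 0.391, 0.405 and 0.446 FPKM in control samples, under the filter of the test in both groups. In the fit without a filter it was higher by 0.47 (adjusted p = 0.00167). Gsta1 had 2, 4 and 2 reads in siEzh2 samples and 0 in each control sample, where a count of 0 allows up to 3 reads. Of its 50-base words 90.5% also lay in other genes, mainly Gm3776 and Gsta2, so its few reads cannot be placed with certainty.

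Gstp1, the pi class enzyme whose human counterpart is abundant in many tissues outside the liver, was low and uneven here. It had 3.49, 2.61 and 3.12 FPKM in siEzh2 samples, against 6.01, 2.06 and 3.65 FPKM in control samples. Control sample 1 held 170 reads and control sample 2 held 60, a spread far above counting error (chi-square per degree of freedom 29.0 in controls and 1.67 in siEzh2 samples). The log2 fold change was -0.19 with a 95% interval from -0.89 to 0.50 (adjusted p = 0.61), and without control sample 1 it was 0.10 (adjusted p = 0.7). Reads of Gstp1 overlap those of copies. Its coding sequence of 633 bases differed from that of Gstp2, the next gene on chromosome 19, in 12 bases (98.1% identity). The first 120 bases are shown to make this plain, again with the differing bases in capitals.
Gstp1: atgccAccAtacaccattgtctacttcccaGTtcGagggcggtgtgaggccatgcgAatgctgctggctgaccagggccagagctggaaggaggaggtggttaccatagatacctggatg
Gstp2: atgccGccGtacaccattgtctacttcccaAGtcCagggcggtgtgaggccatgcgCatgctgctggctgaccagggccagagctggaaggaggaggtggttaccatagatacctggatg
The capitals number 6, and the rest of the stretch is the same in both genes. Of the 50-base words of Gstp1 33.7% occurred in transcripts of Gstp2 or Gstp-ps, a processed pseudogene on chromosome 1, and at 100 bases 25.1% still did. Gstp2 averaged 0.174 FPKM in siEzh2 and 0.373 FPKM in control samples, and Gstp-ps 2.54 FPKM in siEzh2 and 2.36 FPKM in control samples. The separate levels of Gstp1, Gstp2 and Gstp-ps are uncertain for this reason, and whether shared reads were dropped was not tested.

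Gstz1 of the zeta class is also maleylacetoacetate isomerase, an enzyme of tyrosine breakdown. It had 2.13, 2.43 and 2.24 FPKM in siEzh2 samples, against 2.57, 2.18 and 2.09 FPKM in control samples. The groups overlapped and the log2 fold change of 0.00 had a 95% interval from -0.17 to 0.16 (adjusted p = 0.96). Antisense genes, Gm6566 and Pomt2, cover 12.21% of its exon bases.

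Of the microsomal members Mgst3 fell and Mgst1 was not called. Mgst3, which has glutathione transferase and peroxidase activity (ENSMUSG00000026688, chromosome 1 from 167371966 to 167393841, minus strand) had 12.3, 14.5 and 12.9 FPKM in siEzh2 samples, against 18.9, 17.7 and 16.8 FPKM in control samples. All siEzh2 samples were below all controls, with means of 13.2 ± 1.12 FPKM in siEzh2 and 17.8 ± 1.04 FPKM in control samples (SD, n = 3 each), a log2 fold change of -0.40 (SE 0.0701, adjusted p = 0.00485). Mgst1, an enzyme of the endoplasmic reticulum and outer mitochondrial membrane, had 24.7, 25.4 and 25.5 FPKM in siEzh2 samples, against 23.2, 23.8 and 23.4 FPKM in control samples. These groups did not overlap either, but the log2 fold change of 0.10 (95% interval 0.02 to 0.17) narrowly missed the threshold (adjusted p = 0.0534). It passed in 2 of 14 alternatives, at an adjusted p of 0.0302 with limma's trend and robust options and of 0.0315 with a filter at 5 FPKM. The Mgst1 level was 2.01, 1.75 and 1.97 times that of Mgst3 in siEzh2 samples and 1.23, 1.34 and 1.40 times in control samples, a description chosen after the values were seen.

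The promoters of this pair are shown because 1 gene of the class was called lower and the other lay higher without passing the test. RefSeq (GRCm38.p6) gave windows for 9 of the 10 members, and the 250 bases before each start were searched on both strands for TGACNNNGC, a core of the antioxidant response element. The motif, which is printed in capitals, was in 2 of 12 windows of the members, 1 of Gstm5 and 1 of Mgst1, and in 10.2% of all 32851 windows. TGAGTCA, also searched for, was in 2 of the 12 windows, 1 of Gstm5 and 1 of Gstp1, and in 4.5% of all windows. The window of Mgst1 is chr6:138140277-138140526 on the plus strand, and that of Mgst3 is chr1:167393842-167394091 on the minus strand. Both run 5′ to 3′.
Mgst1: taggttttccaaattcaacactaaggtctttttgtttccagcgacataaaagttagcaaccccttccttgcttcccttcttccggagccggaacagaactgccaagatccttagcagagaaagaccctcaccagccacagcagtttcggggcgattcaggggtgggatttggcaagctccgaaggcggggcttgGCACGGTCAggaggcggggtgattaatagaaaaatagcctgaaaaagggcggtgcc
Mgst3: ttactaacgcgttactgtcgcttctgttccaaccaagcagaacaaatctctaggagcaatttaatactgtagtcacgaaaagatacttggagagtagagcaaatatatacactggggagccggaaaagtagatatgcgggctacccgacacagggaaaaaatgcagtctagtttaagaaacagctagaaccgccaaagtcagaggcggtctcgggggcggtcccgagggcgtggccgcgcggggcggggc
The Mgst1 match lies on the strand opposite to the one printed, and the window of Mgst3 holds none. A second window of Mgst1 had no match. The matches are a description of the letters only.

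**Figure D3:**
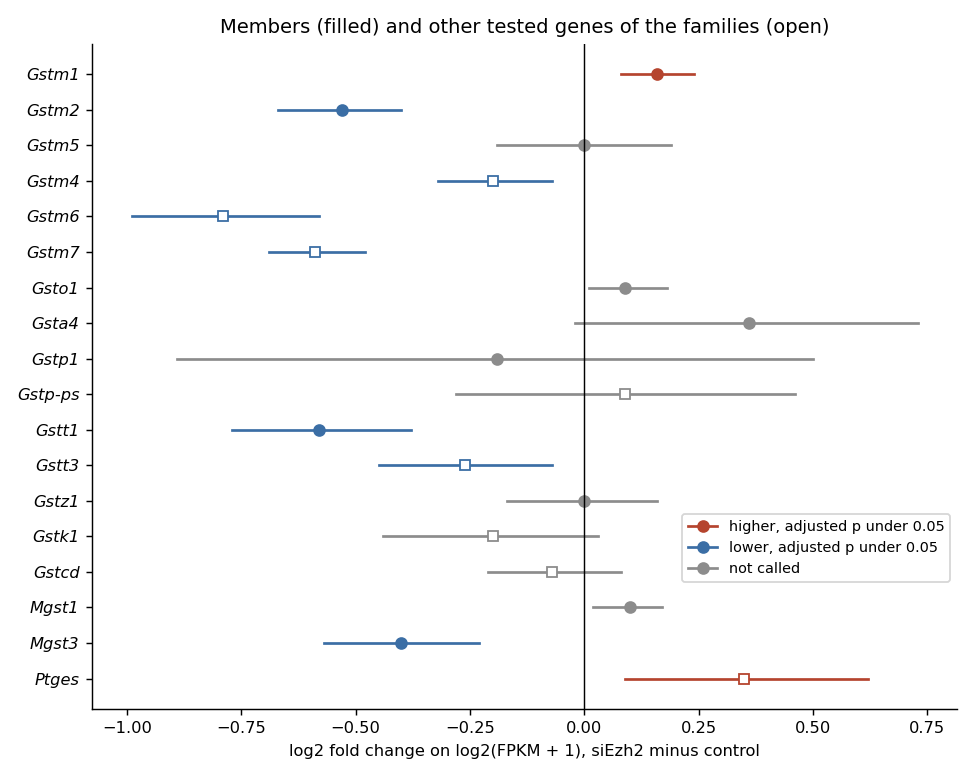
Log2 fold change, siEzh2 minus control, with 95% intervals from limma for the 10 members (filled circles) and the 8 other tested genes of the families (open squares). Gstm2, Gstm4, Gstm6, Gstm7, Gstt1, Gstt3 and Mgst3 were called lower (blue), Gstm1 and Ptges higher (red), and the intervals of Gstp1 (-0.89 to 0.50) and Gsta4 (-0.02 to 0.73) are the widest among the members.

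Summed over all 10 members, the level was 335, 337 and 333 FPKM in siEzh2 samples, against 361, 359 and 355 FPKM in control samples, 0.933 times the control mean. The groups did not overlap. The difference of -23.9 FPKM was made up mainly of the mu class, with -28.3 FPKM, and partly offset by omega, with 8.58 FPKM. The microsomal sum differed by -2.88 FPKM, theta by -1.58, pi by -0.836, zeta by -0.0154 and alpha by 1.15 FPKM. No test was made on these sums.

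Of 24 other genes of the same families, 23 were in the tables, 8 passed the filter and 15 did not. Among the 8, Gstm4, Gstm6, Gstm7 and Gstt3 were lower and Ptges, a MAPEG enzyme that makes prostaglandin E2, was higher (log2 fold change 0.35, adjusted p = 0.0371). Over all tested genes 22.7% were lower and 24.1% higher. The rise of Ptges was lost without siEzh2 sample 3 and without each control sample in turn, and also with no filter on low values (adjusted p = 0.0953), and the count of falls was 2 without siEzh2 sample 1 or control sample 2. Gstk1, the kappa enzyme of mitochondria and peroxisomes, had 2.41, 2.29 and 2.66 FPKM in siEzh2 samples and 3.50, 2.97 and 2.49 FPKM in control samples (adjusted p = 0.132). The median log2 fold change of the 8 was -0.20.

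The list of glutathione synthesis and reduction had a larger share of higher genes than the members. It also holds genes that use glutathione, break it down or carry it. Of 16 tested genes of glutathione synthesis and reduction, 10 were higher and 3 lower, with a median log2 fold change of 0.19. In the whole test, 24.1% of the 11869 genes were called as rises and 22.7% as falls. The count of 3 lower genes is thus near that background. Gclc, the catalytic subunit of glutamate-cysteine ligase, had 88.4, 87.3 and 87.2 FPKM in siEzh2 samples, against 47.1, 47.4 and 46.8 FPKM in control samples (log2 fold change 0.88, adjusted p = 3.57e-05). Its modifier subunit Gclm averaged 14.3 ± 0.444 FPKM in siEzh2 and 7.90 ± 0.318 FPKM in control samples (SD, n = 3 each). The cystine importer Slc7a11 averaged 2.67 FPKM in siEzh2 and 0.342 FPKM in control samples, 7.80 times its control mean (log2 fold change 1.45). Slc7a11 passed the filter only through the siEzh2 samples, where it was high, and it is counted among the 10. Glrx and Glrx2, which remove glutathione from proteins, and Oplah, which returns 5-oxoproline to glutamate, were the 3 that fell.

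Regulators and other target genes of NRF2 had 18 higher and 3 lower genes among 29 tested, with a median of 0.21. The shares over all tested genes were again 24.1% higher and 22.7% lower. Nfe2l2, which encodes NRF2, averaged 42.1 ± 0.526 FPKM in siEzh2 and 31.2 ± 0.315 FPKM in control samples (SD, n = 3 each), and Keap1, its inhibitor, 7.26 ± 0.402 FPKM in siEzh2 and 9.19 ± 0.490 FPKM in control samples. Taldo1 of the pentose phosphate pathway was 4.16 times its control mean, Srxn1, which repairs peroxiredoxins, 2.24 times, and Hmox1, which degrades heme, 1.90 times. Ephx1, an epoxide hydrolase, and Cbr1, a carbonyl reductase, were lower along with Keap1. Nfe2l2, Keap1, Ephx1 and Cbr1, and Glrx, Glrx2, Oplah, Abcc1 and Anpep, were chosen after their values were seen. These lists were chosen with results of these samples known, so their counts are no independent evidence of a direction.

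Steps after conjugation went both ways. Of 12 tested genes of conjugate export and the mercapturate pathway, 6 were higher and 3 lower, with a median of 0.17. Among all tested genes 24.1% were higher and 22.7% lower, so the count of lower genes is near the background. Abcc1, the main exporter of glutathione conjugates, was 1.31 times and Anpep, a peptidase, 1.36 times its control mean. Dpep1, which cleaves the cysteinylglycine bond, had 50.4, 48.4 and 53.1 FPKM in siEzh2 samples, against 81.2, 80.8 and 84.5 FPKM in control samples (log2 fold change -0.69, adjusted p = 0.000146), and the exporter Abcc3 fell by 0.38.

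Among 11 other tested enzymes that use glutathione or are linked to its reactions, 8 were lower and 1 was higher, with a median of -0.17. The shares over all tested genes were 22.7% lower and 24.1% higher. Without control sample 3 the number of lower genes was 5. Gpx3, the secreted glutathione peroxidase, had 145, 137 and 129 FPKM in siEzh2 samples, against 208, 206 and 208 FPKM in control samples, and Gpx7 of the endoplasmic reticulum fell by 0.46 on the log2 scale. Esd, which releases glutathione from S-formylglutathione, was the single rise, at 121, 114 and 120 FPKM in siEzh2 samples, against 56.6, 62.8 and 59.8 FPKM in control samples. Fah, which follows Gstz1 in tyrosine breakdown and was chosen after its values were seen, was not called (7.43 ± 0.844 FPKM in siEzh2 and 8.20 ± 1.02 FPKM in control samples, SD, n = 3 each, adjusted p = 0.365).

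**Figure D4:**
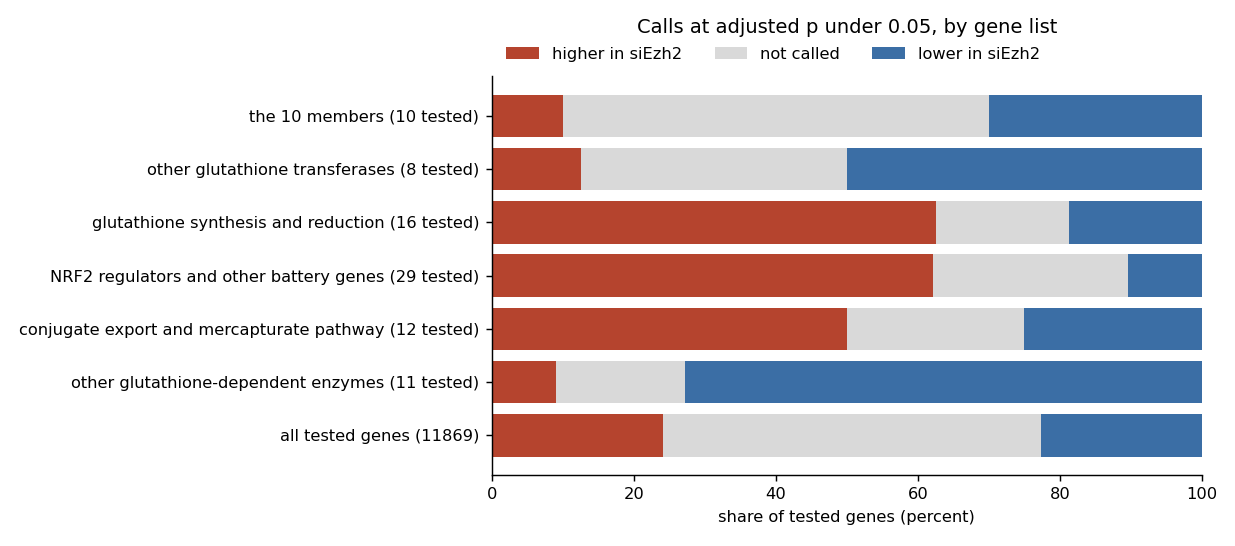
Share of tested genes (horizontal axis, percent) called higher (red), not called (grey) or called lower (blue) in siEzh2 samples at an adjusted p under 0.05, for the members, 5 further lists and all 11869 tested genes. For glutathione synthesis and reduction 10 of 16 genes and for NRF2 regulators and targets 18 of 29 were higher. That stands against 1 of the 10 members and 24.1% of all tested genes.

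Markers of the labelled and of other cell types moved in the same samples. The counts below stand beside 24.1% of all tested genes called higher and 22.7% called lower. Of 7 tested smooth muscle markers 5 were lower and 0 higher, with summed levels of 545 to 583 FPKM in siEzh2 and 721 to 751 FPKM in control samples. Most of that sum was Acta2, while Myh11, a defining marker, averaged 1.12 ± 0.181 FPKM in siEzh2 and 1.83 ± 0.149 FPKM in control samples (SD, n = 3 each). Tagln and Mylk, which contractile cells express strongly, were listed at 0.228 and 0.135 FPKM in siEzh2 and 0.253 and 0.227 FPKM in control samples. Antisense genes overlap 67.86% of the exon bases of Tagln and 6.85% of those of Mylk. Whether counting used the strand is not given, so reads from the overlapping bases may be affected. Over all exon bases Tagln had 23 reads in siEzh2 and 28 in control samples, and Mylk 78 in siEzh2 and 142 in control samples. The part of the overlap in these low values was not tested. Fibroblast markers (1 higher and 3 lower of 6, and 2 higher without siEzh2 sample 3 or control sample 2) summed to 699 to 737 FPKM in siEzh2 and 801 to 851 FPKM in control samples, and adipocyte markers (0 higher and 5 lower of 7) to 49.0 to 50.1 FPKM in siEzh2 and 66.4 to 68.5 FPKM in control samples. Most of the fibroblast sum was Col1a1 (363 FPKM in siEzh2 and 486 FPKM in control samples) and Ly6a (294 and 272 FPKM), which differed in opposite directions. Macrophage and leukocyte markers (2 lower and 2 higher of 4, 1 higher without siEzh2 sample 1 or 2, and 0 higher without siEzh2 sample 3, control sample 2 or control sample 3) summed to 14.1 to 15.2 FPKM in siEzh2 and 17.2 to 20.5 FPKM in control samples, with Ptprc at 0.00416 FPKM in siEzh2 and 0.00397 FPKM in control samples. Among the 2 lower macrophage and leukocyte markers was a gene that passed the filter only through the control samples, where it was higher. Endothelial markers (1 higher and 1 lower of 2) summed to 4.61 to 5.28 FPKM in siEzh2 and 3.95 to 4.26 FPKM in control samples. In the fit without a filter 3 of the 8 endothelial markers were higher and 1 was lower, as were 2766 and 2383 of 27502 genes. Vwf averaged 0.932 ± 0.109 FPKM in siEzh2 and 0.417 ± 0.0524 FPKM in control samples, and Tek 0.857 ± 0.0897 FPKM in siEzh2 and 0.332 ± 0.0815 FPKM in control samples (SD, n = 3 each), while Pecam1 averaged 0.0789 FPKM in siEzh2 and 0.170 FPKM in control samples and Cldn5 had 0 reads in siEzh2 and 8 in control samples. Hepatocyte markers summed to at most 0.378 FPKM in any sample. Mitochondrially encoded transcripts, a sign of RNA quality, had 8 of 13 lower and 0 higher, at 15861 to 16976 FPKM in siEzh2 and 19081 to 19794 FPKM in control samples. After quantile normalization mt-Nd1 and mt-Cytb differed by 0.00. That step gives a gene that keeps its rank in all samples the same value, so it cannot show a difference for such a gene. The part of these shifts in the levels of the transferases was not tested.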

How the data were processed

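Stranded mRNA libraries came from 3 siEzh2 and 3 control samples of mouse aortic cells, per the labels' protocols. The authors deposited 1 table of FPKM per gene and sample, a unit named in the file headers. Tools listed without version or order are Cufflinks, HISAT2, HTSeq and Trimmomatic, with the build mm10, per the submitters' processing notes. A mean of 1 FPKM or more in a group admitted a gene to the test, made on log2(FPKM + 1) with limma 3.58.1 in R 4.3.3, two-sided and without covariates, at an adjusted p under 0.05. The test was tried on simulated data, where some calls were false and some small changes were missed. Tables and figures were made in Python 3.11.15 with matplotlib 3.10.9, scipy 1.17.1, pandas 2.3.3 and numpy 2.4.6. Exons came from GENCODE M21, which held 99.8% of the gene IDs. FPKM times exon length moved in steps of 1 read, and 98.4% to 98.5% of values below 1000 reads lay within 0.02 of a whole number, for 16080044 to 18753186 reads per sample. A count of 0 allows up to 3 reads, which covers counting error only. Named genes were the 10 members, Ezh2 and the 3 smallest p-values of each list. All other genes printed were chosen after their values were seen. A gene that this rule names is not reported here. The members and lists were chosen with earlier results of these data known. Alternatives were a pseudocount of 0.1, no filter, a filter at 5 FPKM, quantile and upper-quartile scaling, trend and robust fits, a replicate block, limma-voom on recovered reads and leaving out each sample in turn.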

Additional observations from a re-analysis of the deposited data

How the results depend on the processing

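The falls of Gstm2, Gstt1 and Mgst3 and the rise of Gstm1 kept their direction and call in all alternatives that tested them, with adjusted p-values of at most 0.00427, 0.0104, 0.0192 and 0.034. The filter at 5 FPKM left out Gsta4, Gstp1, Gstt1 and Gstz1. The number of members called higher was 1, and it was 2 after quantile normalization and 3 with a filter at 5 FPKM, with trend and robust options or on recovered reads, since Gsto1, Mgst1 or Gsta4 passed there. Leaving out 1 sample gave 1 to 2 members higher and 3 lower. Gstp1, Gstm5 and Gstz1, called in no alternative, took either sign. Of the genes of the other lists, mt-Nd1 and mt-Cytb stood at 0.00 after quantile normalization, mt-Co1 lost its call there (adjusted p = 0.0921), Cd14 lost its call in 6 alternatives (adjusted p from 0.0537 to 0.104) and Gstm4 in 4 (0.0518 to 0.0702). A value of 0.00 after that normalization is fixed for a gene that keeps its rank in all samples, so it is no test of such a gene. Over all tested genes, leaving out 1 sample gave 2309 to 2516 higher and 2156 to 2345 lower genes, against 2866 and 2695. With the replicate number as a block 1 member was higher and 3 lower, and 2564 and 2385 genes in all. The numbers share no stated source: deviations of same-numbered samples correlated at 0.024, 0.070 and 0.040, in each case the highest for that sample, which is a hint from the data and not from the design. The median log2 fold change of all genes stayed between -0.01 and 0.01. Depth limits Gstt1, Gsta4 and Gstp1, which rest on at most 335 reads a group.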
